A study of Chlorocebus sabaeus with 32 samples.

Results

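The insulin-like growth factor (IGF) system was followed in the hippocampus of young vervet monkeys through 10 genes: the ligands IGF1 and IGF2, the receptors IGF1R and IGF2R, and the binding protein genes IGFBP2 to IGFBP7. The 10 genes were taken by symbol from the first column of the deposited count table, and all 10 were found among its 33994 gene rows. RNA sequencing of 32 hippocampus libraries of the vervet (Chlorocebus sabaeus) was described by the submitters as a study of development, but every library carries the same age label, under 1 year. The labels name no genotype, treatment, strain, sex or exact age, so the 32 libraries form 1 group that shares tissue, age class and library chemistry. Titles open with 2009 in 14 libraries, with 2010 in 16 and with 2011 in 2; the labels do not say what these digits stand for, and they are used here only as title sets. Each title carries its own identifier, but nothing says that the libraries came from separate animals, so p-values measure the spread between these libraries. Libraries are numbered 1 to 32 in the order of deposition, which only names them.

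The 2 ligands are secreted peptides that act through the receptor tyrosine kinase encoded by IGF1R, which signals through insulin receptor substrates, PI3 kinase and AKT to support growth, survival and differentiation. IGF2R, also the cation-independent mannose-6-phosphate receptor, has no kinase and carries IGF2 and lysosomal enzymes into the cell. The binding proteins hold the ligands outside the cell, prolong their life and set how much can reach the receptor. In the developing hippocampus IGF1 is known for its effect on neurogenesis, and in the brain IGF2 is made largely by the meninges, the choroid plexus and cells along the vessels. The levels of the 10 genes were therefore set against DCX (doublecortin, a microtubule protein of young, migrating neurons) and COL1A2 (a chain of type I collagen, made in the brain by fibroblasts of the meninges and vessels).

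Each library held between 9347635 and 19673621 counts on genes. Levels are given as CPM, the gene's counts relative to the scaled library size. DCX ran from 36.9 to 114 CPM with a median of 58.6, and COL1A2 from 9.24 to 156 with a median of 29.2. Library 8 stood apart from the other 2009 libraries with 156 CPM of COL1A2, where the other 13 held at most 35.6, and library 22 of the 2010 set held 136. Library 22 also held 387 CPM of TTR, the transthyretin of the choroid plexus. Library 8 was next with 34.7 CPM, and all other libraries held at most 17.8. The summed level of 10 young neuron markers ran from 1365 to 4543 CPM and that of 12 fibroblast markers from 256 to 766 CPM, with no marker of either list at 0 in any library. Markers of dentate granule cells (6 genes, 224 to 598 CPM) and of hippocampal pyramidal cells (6 genes, 467 to 1339 CPM) were read in all libraries as lists, with 1 gene of each list at 0 in some library. In bulk tissue, fewer cells of a type and less RNA per cell cannot be told apart.

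IGF1 stood at 36.1 ± 10.1 CPM (SD, n = 32), with a lowest value of 24.5, a median of 32.1 and a highest of 62.2. The 4 libraries above 50 CPM, numbers 25, 26, 28 and 29, all carried a 2010 title and were the 4 highest in DCX. In the 2009 set IGF1 ran from 24.5 to 40.3 with a median of 29.7, and in the 2010 set from 25.9 to 62.2 with a median of 37.4. The sets overlapped, and 6 of the 16 libraries of the 2010 set lay above the whole 2009 range.

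IGF2 was read at a low level, from 0.183 to 3.64 CPM with a median of 1.18. These levels rest on 3 counts in library 2 (exact Poisson 95% interval 0.0376 to 0.533 CPM) and on 70 counts in library 8 (2.84 to 4.60 CPM), and the intervals cover counting error only. The highest value was thus in the library with the most COL1A2. The 2009 set (0.183 to 3.64) enclosed the 2010 set (0.585 to 2.25).

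IGF1R stood at 116 ± 17.8 CPM, with 79.8 at the lowest, a median of 114 and 159 at the highest. The lowest value was in library 31 with a 2011 title and the highest in library 9 with a 2009 title. IGF2R stood at 179 ± 30.1 CPM, from 126 through a median of 169 to 260. Both receptor genes varied about as much as the median gene. Their coefficients of variation beyond counting error were 0.150 for IGF1R and 0.164 for IGF2R, and the median of all 19959 genes was 0.157.

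The binding protein genes varied more. IGFBP3, whose product carries most of the IGF in blood, ran from 8.58 to 79.2 CPM with a median of 15.9, and its coefficient of variation of 0.605 was above that of 99.5% of genes. Libraries 29, 32 and 15 held 79.2, 72.2 and 63.2 CPM, while the next highest, library 27, held 32.9. The gene thus set 3 libraries, 2 of the 2010 set and 1 of the 2011 set, apart from the other 29.

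IGFBP2, a main binding protein of fetal brain and cerebrospinal fluid, ran from 8.26 to 32.1 CPM with a median of 13.6. IGFBP7, a protein of vessel walls that binds IGF weakly, ran from 26.4 to 82.8 with a median of 44.3. IGFBP5, which is kept in the extracellular matrix and is read in neurons and glia, ran from 78.9 to 225 with a median of 125. The highest values fell in different libraries: library 31 for IGFBP2, library 32 for IGFBP7 and library 25 for IGFBP5.

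IGFBP4, an inhibitor of IGF action that the protease PAPPA cuts, ran from 11.3 to 33.2 CPM with a median of 22.5. IGFBP6, which prefers IGF2 to IGF1, ran from 4.77 to 19.3 with a median of 10.9. Both were highest in library 5. Values of different genes are not compared with each other here, since a CPM is not corrected for transcript length.

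**Figure D1:**
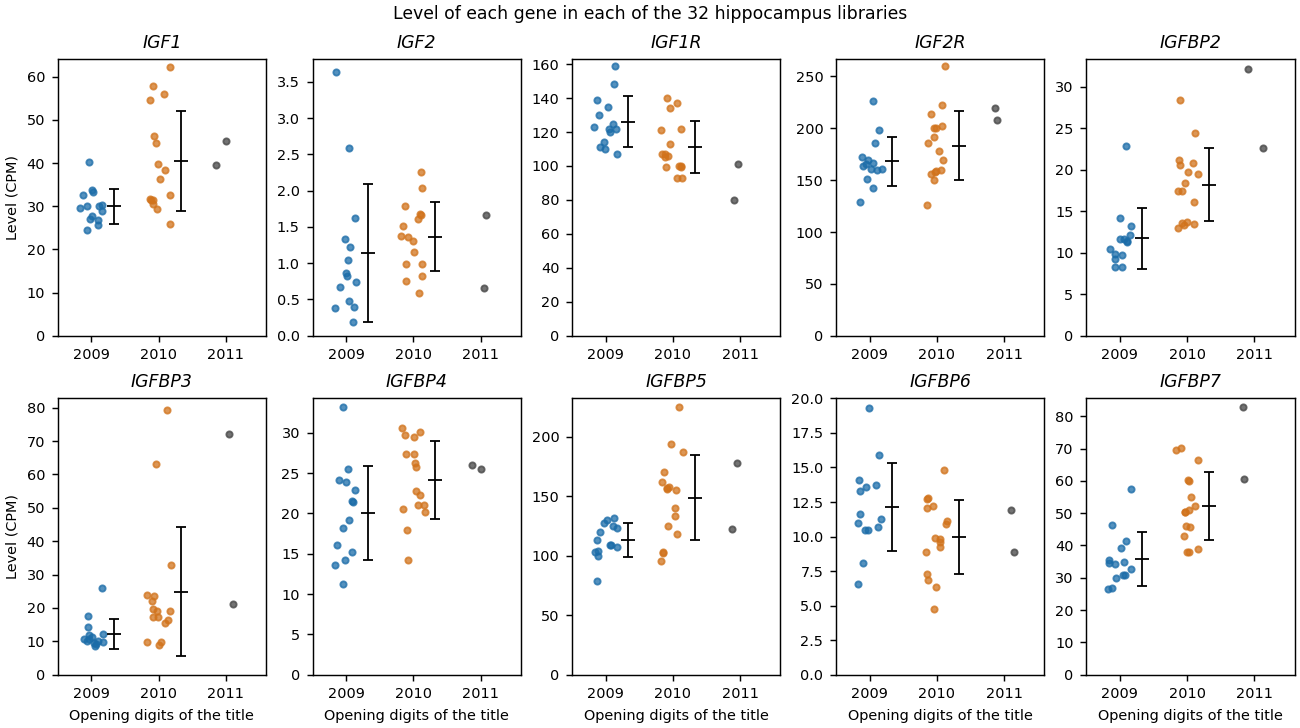
Level (CPM, linear axis from 0) of each of the 10 genes in each library (points), by the opening digits of the library's title; bars give the mean ± SD of the 14 libraries of 2009 and the 16 of 2010. IGFBP2 and IGFBP7 were above the 2009 median in all 16 libraries of 2010, and 3 libraries stand apart in IGFBP3.

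The first question was how the genes moved with DCX. IGF1 and most binding protein genes were higher where DCX was higher, and IGFBP6 was lower. In edgeR's quasi-likelihood fit over all genes, the slope on DCX passed at an adjusted p under 0.05 for 8 of the 10 genes, 7 upward and 1 downward, against 26.1% of all 19958 genes tested, 13.1% upward and 13.1% downward. The 10 genes were chosen with earlier results of these data known. Here and below, such counts beside the share of all genes describe the set and are no independent test. Slopes are log2 differences per SD of log2 DCX, which was 0.49. Their median was 0.25 over the 10 genes and -0.00012 over all genes.

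IGF1 had a slope of 0.33 ± 0.028 (SE, adjusted p = 1.17e-10, edgeR), which is 1.26-fold per SD. Its Pearson r with DCX was 0.901 and its Spearman rho 0.834, each with a permutation p of 1e-05, the smallest that 100000 permutations can give, and adjusted p-values of 0.000223 and 0.00027. Without the 2 libraries farthest from the median of DCX, numbers 25 and 29, r was 0.872. Correlations with DCX passed for 8 of the 10 genes by r, where 25.7% of all genes did, and for 8 by rho, also with 25.7% of all genes.

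The binding protein genes followed at different slopes. IGFBP3 had 0.76 ± 0.098 (adjusted p = 4.17e-07, edgeR), IGFBP2 0.44 ± 0.049 (3.68e-08), IGFBP7 0.32 ± 0.052 (1.74e-05) and IGFBP5 0.26 ± 0.037 (2.26e-06). Pearson r and Spearman rho with DCX were 0.838 and 0.841 for IGFBP2, 0.762 and 0.720 for IGFBP5, 0.761 and 0.788 for IGFBP3, and 0.736 and 0.753 for IGFBP7. The permutation p of these values was 1e-05, except for the rho of IGFBP5 (3e-05), and the adjusted p-values were at most 0.000582. Without libraries 25 and 29 the r of these 4 genes lay between 0.687 and 0.844.

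IGFBP4 (0.17 ± 0.055, adjusted p = 0.0186, edgeR) and IGF2R (0.15 ± 0.033, adjusted p = 0.000625) rose with smaller slopes. IGFBP6 fell by 0.21 ± 0.062 per SD of DCX (adjusted p = 0.0122, edgeR), with an r of -0.444 and a rho of -0.501. Without libraries 25 and 29 the calls of IGFBP4 and IGFBP6 ended, at adjusted p-values of 0.0901 and 0.0542 by edgeR. IGF1R (-0.07 ± 0.036, adjusted p = 0.166, edgeR) and IGF2 (0.23 ± 0.14, adjusted p = 0.238) did not pass. With the mean of the other young neuron markers in place of DCX, IGF1R fell by 0.13 per SD (adjusted p = 0.0014, edgeR), so that 9 of the 10 genes passed, where 33.7% of all genes did.

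**Figure D2:**
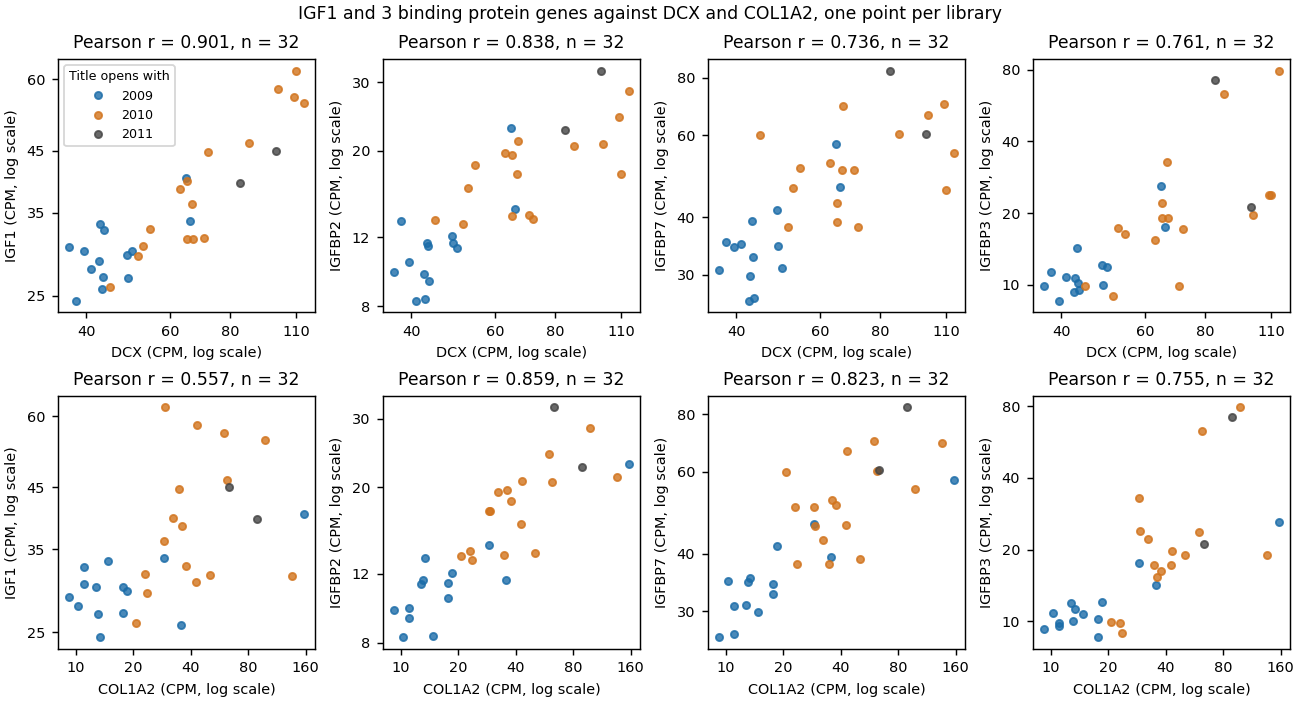
IGF1, IGFBP2, IGFBP7 and IGFBP3 against DCX (top) and COL1A2 (bottom), all in CPM on log axes, 1 point per library, coloured by the opening digits of the title, with Pearson r of log2 CPM over the 32 libraries. IGF1 lies close to a line against DCX (r = 0.901) and is spread wider against COL1A2 (r = 0.557). IGFBP2 follows COL1A2 at r = 0.859 and DCX at r = 0.838, and IGFBP7 follows them at r = 0.823 and r = 0.736.

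Against COL1A2, 9 of the 10 genes passed, 8 upward and 1 downward, where 21.7% of all 19958 genes passed, 10.9% upward and 10.8% downward. The median slope per SD of log2 COL1A2 (an SD of 1.09) was 0.21 over the 10 genes and -0.00063 over all genes. The steepest slopes were those of IGFBP3 at 0.76 ± 0.10 (adjusted p = 4.65e-06, edgeR), IGFBP2 at 0.45 ± 0.048 (8.09e-08), IGF2 at 0.40 ± 0.11 (0.0103) and IGFBP7 at 0.36 ± 0.044 (1.55e-06). IGF1 (0.22 ± 0.055), IGFBP4 (0.20 ± 0.055), IGFBP5 (0.20 ± 0.050) and IGF2R (0.14 ± 0.035) also rose, with adjusted p-values of at most 0.00923 by edgeR. IGF1R fell by 0.11 ± 0.033 (adjusted p = 0.0162, edgeR), and IGFBP6 stood at -0.10 ± 0.069 (adjusted p = 0.297).

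IGF2, the gene with the lowest counts, rests on library 8: without it the slope was 0.29 and the adjusted p 0.0896 by edgeR, and without libraries 8 and 22 the adjusted p was 0.214. Its r with COL1A2 was 0.519 and its rho 0.444 (permutation p = 0.00245 and 0.0112, adjusted p = 0.018 and 0.0461), and r was 0.366 without those 2 libraries. IGFBP2 had an r of 0.859 and a rho of 0.908 with COL1A2, IGFBP7 0.823 and 0.845, and IGFBP3 0.755 and 0.802, all with a permutation p of 1e-05 and adjusted p-values of at most 0.000524. Without libraries 8 and 22 these r were 0.877, 0.827 and 0.828. For IGF1, r with COL1A2 was 0.557 and rho 0.633, and r was 0.656 without those 2 libraries. Correlations with COL1A2 passed for 9 of the 10 genes by r, where 21.2% of all genes did, and by rho the share of all genes was 25.1%.

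When the mean of the other fibroblast markers took the place of COL1A2, 4 of the 10 genes passed and 2.84% of all genes did. The 4 were IGF2 at 0.45 per SD (adjusted p = 0.0184, edgeR), IGFBP2 at 0.35 (0.0107), IGFBP3 at 0.64 (0.017) and IGFBP7 at 0.33 (0.000537). Of 12 fibroblast markers, 5 rose and 1 fell with DCX, and 7 rose and 1 fell of the 11 tested with COL1A2. Of 10 young neuron markers, all 9 tested rose with DCX and all 10 with COL1A2. Of 10 pericyte and smooth muscle markers, 6 rose with DCX and 7 with COL1A2, with none falling. Of 8 oligodendrocyte precursor markers, 6 rose with DCX, 5 with COL1A2 and 4 were higher in the 2010 titles. Of 10 markers of myelinating oligodendrocytes, 4 fell with each reference gene. With DCX, 3 of 12 endothelial markers rose, 3 of 11 microglia markers rose and 3 fell, and 1 of 10 astrocyte markers rose and 3 fell. With COL1A2, 4 endothelial markers rose, 3 microglia markers rose and 1 fell, and 1 astrocyte marker fell. Interneuron markers, 10 in all, had 2 rising and 1 falling with DCX, and 4 and 1 with COL1A2. Choroid plexus markers, 5 of 10 tested, had 0 called with DCX, and 1 rising and 0 falling with COL1A2. Among all genes, 13.1% rose and 13.1% fell with DCX, 10.9% rose and 10.8% fell with COL1A2, and 7.11% were higher in 2010. The precursor list shares PDGFRA with the fibroblast list and CSPG4 with the pericyte and smooth muscle list. The part of these cell types in the slopes of the 10 genes was not tested.

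DCX and COL1A2 were themselves correlated over the libraries (r = 0.715, rho = 0.766, each with a permutation p of 1e-05 and adjusted p-values of 0.000223 and 0.00027, and r = 0.732 without libraries 25 and 29), so both were placed in a single fit. Given COL1A2, the slope on DCX passed for 4 of the 10 genes, all upward, where 7.29% of all 19957 genes passed, 3.56% upward and 3.73% downward. These were IGF1 at 0.38 ± 0.039 (adjusted p = 2.07e-07, edgeR), IGFBP5 at 0.25 ± 0.053 (0.00234), IGFBP2 at 0.24 ± 0.054 (0.00509) and IGFBP3 at 0.44 ± 0.14 (0.0447). IGFBP6 stood at -0.27 ± 0.088 (adjusted p = 0.0534, edgeR).

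Given DCX, the slope on COL1A2 passed for 2 of the 10 genes, IGFBP2 at 0.27 ± 0.054 (adjusted p = 0.0143, edgeR) and IGFBP7 at 0.27 ± 0.059 (0.0415). Of all genes 0.185% passed, 0.17% upward and 0.015% downward. IGF2 stood at 0.46 ± 0.15 (adjusted p = 0.219, edgeR) and IGF1 at -0.06 ± 0.040 (adjusted p = 0.449). With the title set as a further factor, IGF1 and IGFBP5 passed on DCX (4.17% of all genes did) and IGFBP2 on COL1A2 (0.15%), while the calls of IGFBP2 (adjusted p = 0.0748, edgeR) and IGFBP3 (0.0877) on DCX and of IGFBP7 (0.0963) on COL1A2 ended. The call of IGFBP7 on COL1A2 also ended with the share of reads in no feature as a covariate (adjusted p = 0.116, edgeR).

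Whether a gene leaned more on one reference than on the other was tested as the difference between its 2 slopes in that fit, a test added after the slopes had been seen. The test was run with all 32 libraries and the main settings only. It passed for 1 of the 10 genes, where 0.175% of all genes passed, 0.0651% toward DCX and 0.11% toward COL1A2. For IGF1 the slope on DCX exceeded that on COL1A2 by 0.44 ± 0.074 (adjusted p = 0.00267, edgeR). IGFBP5 (0.24 ± 0.10, adjusted p = 0.335), IGFBP6 (-0.37 ± 0.16, adjusted p = 0.384) and IGF2 (-0.57 ± 0.29, adjusted p = 0.441) followed. The difference was -0.14 ± 0.11 for IGFBP7 (adjusted p = 0.637, edgeR) and -0.03 ± 0.10 for IGFBP2 (adjusted p = 0.927, edgeR). A different lean on the 2 references was thus not shown for these genes.

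**Figure D3:**
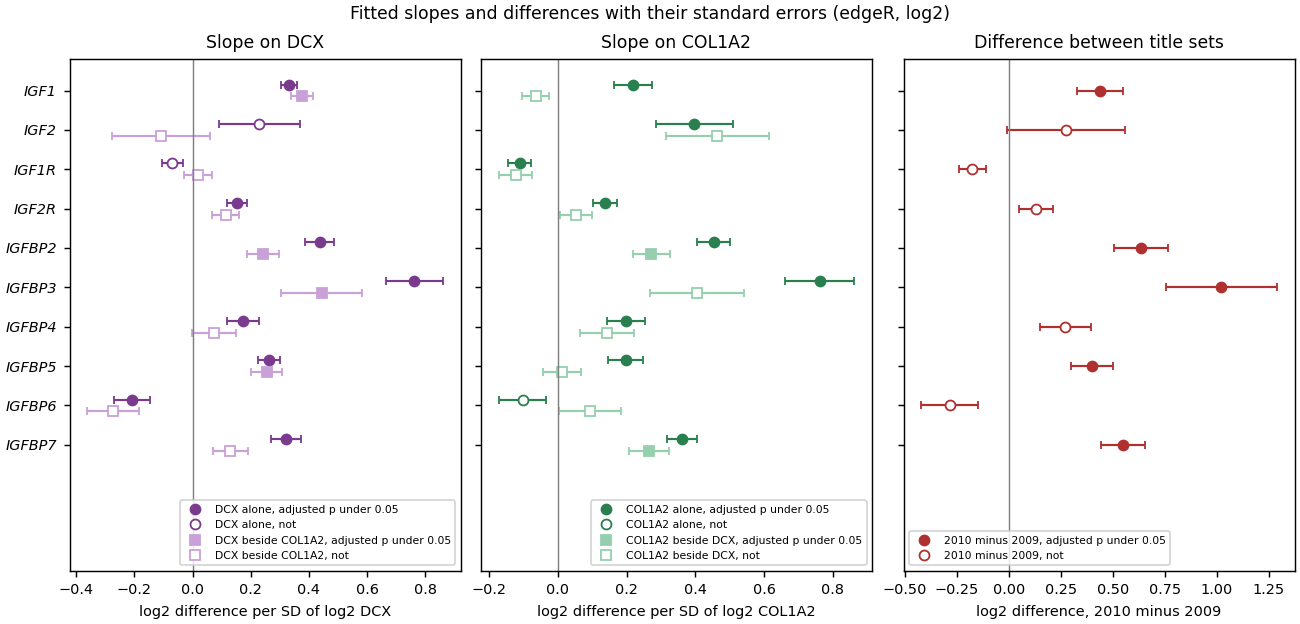
Fitted log2 slopes per SD of log2 DCX (left) and of log2 COL1A2 (middle), from fits with 1 reference gene (circles) and with both (squares), and the log2 difference between the 2010 and 2009 libraries (right); bars are SE, and filled symbols have an adjusted p under 0.05 over all genes by edgeR. The slope of IGF1 on DCX is 0.33 alone and 0.38 beside COL1A2, while its slope on COL1A2 goes from 0.22 to -0.06.

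Between the title sets, IGF1 and 4 binding protein genes were higher in the 16 libraries of 2010 than in the 14 of 2009. The difference passed for 5 of the 10 genes, all upward, where 12.5% of all 23977 genes passed, 7.11% upward and 5.35% downward. The median log2 difference was 0.34 over the 10 genes and 0.0054 over all genes.

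IGFBP2 had 11.7 ± 3.66 CPM (SD, n = 14) in the 2009 set, from 8.26 through a median of 11.4 to 22.9, and 18.2 ± 4.39 CPM (n = 16) in the 2010 set, from 13 through 17.9 to 28.4. All 16 libraries of 2010 lay above the 2009 median, and 11 of 14 libraries of 2009 lay below the whole 2010 range. The log2 difference was 0.64 ± 0.13 (SE, adjusted p = 0.00179, edgeR).

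IGFBP7 had 35.8 ± 8.30 CPM in the 2009 set, from 26.4 through 34.6 to 57.6, and 52.2 ± 10.7 CPM in the 2010 set, from 38.0 through 50.8 to 70.1. Again all 16 libraries of 2010 lay above the 2009 median, and the ranges overlapped. The log2 difference was 0.55 ± 0.11 (adjusted p = 0.00137, edgeR).

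IGFBP3 had 12.3 ± 4.55 CPM in the 2009 set, from 8.58 through 10.8 to 26, and 24.9 ± 19.3 CPM in the 2010 set, from 8.95 through 19 to 79.2. In the 2010 set 13 of 16 libraries lay above the 2009 median and 3 above its whole range. The log2 difference of 1.02 ± 0.27 (adjusted p = 0.0115, edgeR) was the largest among the 10 genes and also the one with the second largest SE.

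IGFBP5 had 113 ± 14.5 CPM in the 2009 set, from 78.9 through 111 to 132, and 149 ± 35.7 CPM in the 2010 set, from 95.9 through 156 to 225. Here 11 of 16 libraries of 2010 lay above the whole 2009 range, and the log2 difference was 0.40 ± 0.10 (adjusted p = 0.00882, edgeR). IGF1 differed by 0.44 ± 0.11 (adjusted p = 0.00888, edgeR), with 14 of 16 libraries of 2010 above the 2009 median.

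IGF1R was lower by value in the 2010 set, at 111 ± 15.3 CPM (from 93.1 through 107 to 140) against 126 ± 15.1 CPM (from 107 through 123 to 159), and did not pass (-0.18 ± 0.064, adjusted p = 0.0661, edgeR). It passed by DESeq2 (adjusted p = 0.0454) and by edgeR without library 6, 8, 17, 18 or 25, at adjusted p-values from 0.0279 to 0.0499. IGFBP4 (0.27 ± 0.12, adjusted p = 0.143), IGFBP6 (-0.28 ± 0.14, adjusted p = 0.174), IGF2R (0.13 ± 0.082, adjusted p = 0.315) and IGF2 (0.27 ± 0.28, adjusted p = 0.578) did not pass either, though IGFBP4 did without library 5 (0.35, adjusted p = 0.0423, edgeR). For IGF2, leaving out 1 library moved the log2 difference between 0.18 without library 2 and 0.57 without library 8, and it passed in neither case (adjusted p = 0.723 and 0.138, edgeR). The 2 libraries of the 2011 set shared the spread but were not compared; they held 32.1 and 22.6 CPM of IGFBP2 and 60.5 and 82.8 CPM of IGFBP7.

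DCX and COL1A2 were higher by median in the 2010 set too. DCX stood at 46.4 ± 8.90 CPM in the 2009 set and 74.6 ± 22.6 CPM in the 2010 set. All 10 young neuron markers, DCX among them, were called higher in 2010, where 7.11% of all genes were. COL1A2 had a median of 14.1 CPM in 2009 and 36.9 CPM in 2010. All 16 libraries of 2010 lay above its 2009 median, and 0 lay above its whole 2009 range. Of 12 fibroblast markers, 1 was called higher in 2010 and 1 lower, where 5.35% of all genes were lower. With both reference genes as covariates, no gene of the table passed between the sets and 2155 had an unadjusted p under 0.05 by edgeR. In that fit the log2 differences of the 10 genes ranged on both sides of 0, with IGFBP7 at 0.25 (adjusted p = 0.502, edgeR) and IGFBP2 at 0.14 (adjusted p = 0.733). Without libraries of VMT numbers at or above 20000, the second number in the titles, the call of IGFBP3 ended (0.92, adjusted p = 0.054, edgeR) and the other 4 held, where 5.23% of all 22203 genes passed. All 14 libraries of 2009 and 7 of the 16 of 2010 had numbers below 20000, so the title sets also differ in these numbers.

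Since the sets differed in both references, the slopes were also taken with the set as a factor. The slope on DCX then passed for 5 of the 10 genes, where 7.89% of all genes passed: IGF1 at 0.39 ± 0.040 (adjusted p = 2.91e-07, edgeR), IGFBP3 at 0.71 ± 0.14 (0.00134), IGFBP2 at 0.34 ± 0.067 (0.00128), IGFBP5 at 0.26 ± 0.056 (0.00271) and IGF2R at 0.19 ± 0.047 (0.00952). The calls of IGFBP7 (adjusted p = 0.0802, edgeR), IGFBP6 (0.122) and IGFBP4 (0.288) ended. The slope on COL1A2 passed for 3 of the 10, where 0.787% of all genes passed: IGFBP2 at 0.33 ± 0.049 (0.00014), IGFBP7 at 0.25 ± 0.047 (0.00373) and IGFBP3 at 0.62 ± 0.13 (0.0123). The other 6 calls on COL1A2 ended, with adjusted p-values from 0.0749 for IGF2 to 0.582 for IGF1R by edgeR.

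Within the 2010 set alone, the slope on DCX passed for 4 of the 10 genes, where 5.22% of all genes passed. They were IGF1 at 0.43 ± 0.043 (adjusted p = 5.46e-05, edgeR), IGFBP5 at 0.31 ± 0.063 (0.00901), IGFBP3 at 0.76 ± 0.18 (0.0205) and IGFBP2 at 0.26 ± 0.071 (0.0389). Within the 2009 set the slope passed for 1 of the 9 genes tested, IGFBP3 at 0.69 ± 0.12 (0.0285), where 0.234% of all genes passed. IGF2 was too low in that set to be tested.

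The r of IGF1 with DCX was 0.934 in the 2010 set (permutation p = 1e-05, adjusted p = 0.0057, n = 16) and 0.635 in the 2009 set (permutation p = 0.0163, adjusted p = 0.41, n = 14). Within the 2010 set, correlation with DCX passed for IGF1 and IGFBP5 (r = 0.774, permutation p = 0.0005, adjusted p = 0.0257), where 4.09% of all genes passed. Within the 2009 set 0% of genes passed, and the r of IGFBP3 was 0.814, of IGFBP2 0.722, of IGFBP7 0.715 and of IGF2R 0.614, with adjusted p-values from 0.212 to 0.456 by permutation.

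The slope on COL1A2 passed within the 2009 set for IGFBP3 (0.40 ± 0.050, adjusted p = 0.00156, edgeR), IGFBP2 (0.33 ± 0.052, 0.0163) and IGFBP7 (0.27 ± 0.043, 0.0166), where 0.142% of all genes passed. Within the 2010 set it passed for none of the 10 and 0.0363% of all genes, while 5 of the 10 had an unadjusted p under 0.05 by edgeR, the lowest being 0.000619 for IGFBP2 (0.36 ± 0.087). By correlation with COL1A2, 0% of genes passed within the 2009 set and 0.02% within the 2010 set, none of them among the 10.

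Within the 2009 set the calls, and some of the slopes, rest on library 8. Without it, in a fit added after the values were seen, 0 of 9 genes passed for either reference. On COL1A2 the slope of IGFBP3 was then 0.39 ± 0.11 against 0.40 with it, that of IGFBP7 0.345 ± 0.087 against 0.27, and that of IGF1 -0.0040 against 0.11. On DCX the slope of IGFBP3 went from 0.69 to 0.45 ± 0.13 and that of IGF1 from 0.23 to 0.13. The r with COL1A2 in the remaining 13 libraries was 0.765 for IGFBP7, 0.720 for IGFBP3, 0.590 for IGFBP2 and -0.0364 for IGF1.

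A difference between the sets in the slope itself was tested for each gene. None of the 10 passed for DCX, where 0.00465% of all 21522 genes did, or for COL1A2, where 0% did and 633 genes had an unadjusted p under 0.05 by edgeR. Of the 20 slopes tested, 4 had an unadjusted p under 0.05: for DCX, IGF2 (2010 minus 2009, -1.16 ± 0.41, p = 0.00878), IGF1 (0.20 ± 0.092, p = 0.0352) and IGFBP7 (-0.31 ± 0.15, p = 0.0406), and for COL1A2, IGFBP3 (0.53 ± 0.25, p = 0.0422), all by edgeR. Their adjusted p-values were at least 0.868. The value of IGF2 rests in part on the 2009 set, where the gene was too low to be tested alone (3 counts in library 2, 70 in library 8).

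Some genes moved with the make-up of the libraries. Reads in no gene feature took 51.3% to 67.1% of all reads counted. IGF1R rose with this share (r = 0.689, rho = 0.627, permutation p = 3e-05 and 0.00023, adjusted over 36 such relations 0.00108 and 0.00828), with r = 0.629 without the 2 farthest libraries, 0.758 within the 2009 set and 0.692 within the 2010 set. IGFBP6 fell with it (r = -0.514, rho = -0.543, permutation p = 0.00285 and 0.00145, adjusted p = 0.0342 and 0.0174; r = -0.503 without the 2 farthest, -0.805 and -0.393 within the sets).

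IGFBP6 also rose with the number of counts (r = 0.565, rho = 0.558, permutation p = 0.00091 and 0.00117, adjusted p = 0.0164 and 0.0174; r = 0.507 without the 2 farthest, 0.651 and 0.410 within the sets). With the share in no feature as a covariate, IGF1R passed for DCX at -0.08 (adjusted p = 0.0132, edgeR) and for the title sets at -0.16 (adjusted p = 0.0176). No other of the 10 genes passed with any of the 3 measures. With the share in no feature as a covariate, IGFBP6 still fell with DCX (-0.19, adjusted p = 0.00693, edgeR) and IGF1R with COL1A2 (-0.08, adjusted p = 0.0148). The part of the number of counts in the result for IGFBP6 was not tested.

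The 10 genes were then compared with each other. Of 45 pairs, 22 were correlated over the 32 libraries by Pearson r in the scans of both genes against the whole table, 19 positively and 3 negatively, and 20 pairs passed by Spearman rho, all of them among the 22. All 10 pairs among IGF1, IGFBP2, IGFBP3, IGFBP5 and IGFBP7, a grouping made after the values were seen, passed with r from 0.545 to 0.855. The shares of all genes that passed with each as the reference were 17.6% for IGF1, 0.0401% for IGF2, 39.9% for IGF1R, 24.8% for IGF2R, 34% for IGFBP2, 22.8% for IGFBP3, 9.53% for IGFBP4, 11.8% for IGFBP5, 15.4% for IGFBP6 and 23.2% for IGFBP7.

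The closest pair was IGFBP2 and IGFBP7 (r = 0.855, rho = 0.911, permutation p = 1e-05 for both, larger adjusted p of the scans 0.000419 and 0.000379), with r of 0.842 in the 2009 set and 0.638 in the 2010 set and 0.882 without the 2 libraries farthest in IGFBP2. By Pearson r, IGF1 was closest to IGFBP5 (r = 0.739, rho = 0.691, permutation p = 1e-05 and 3e-05, larger adjusted p 0.00133 and 0.00578; r = 0.407 and 0.726 in the sets and 0.670 without the 2 farthest). By rho it was closer to IGFBP3 (0.739) and IGFBP2 (0.710). The r of 21 of the 22 pairs had the same sign in both sets, and in 6 pairs its size was over 0.5 in both.

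The 3 negative pairs were IGF1R with IGFBP2 (r = -0.633, rho = -0.560, permutation p = 0.0001 and 0.00108, larger adjusted p 0.00125 and 0.0066), IGF1R with IGFBP7 (r = -0.476, rho = -0.471, permutation p = 0.0062 and 0.00724, larger adjusted p 0.0315 for both) and IGF1 with IGFBP6 (r = -0.475, rho = -0.509, permutation p = 0.00598 and 0.00337, larger adjusted p 0.0444 and 0.0369). Without the 2 libraries farthest in the first gene these r were -0.497, -0.393 and -0.397. In the 2009 and 2010 sets they were -0.542 and -0.170 for the first pair, -0.362 and 0.0366 for the second and -0.381 and -0.415 for the third. IGF1 and its receptor gene were not correlated beyond the threshold (r = -0.189, rho = -0.225, permutation p = 0.3 and 0.215), and IGF2 passed with none of the other 9.

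**Figure D4:**
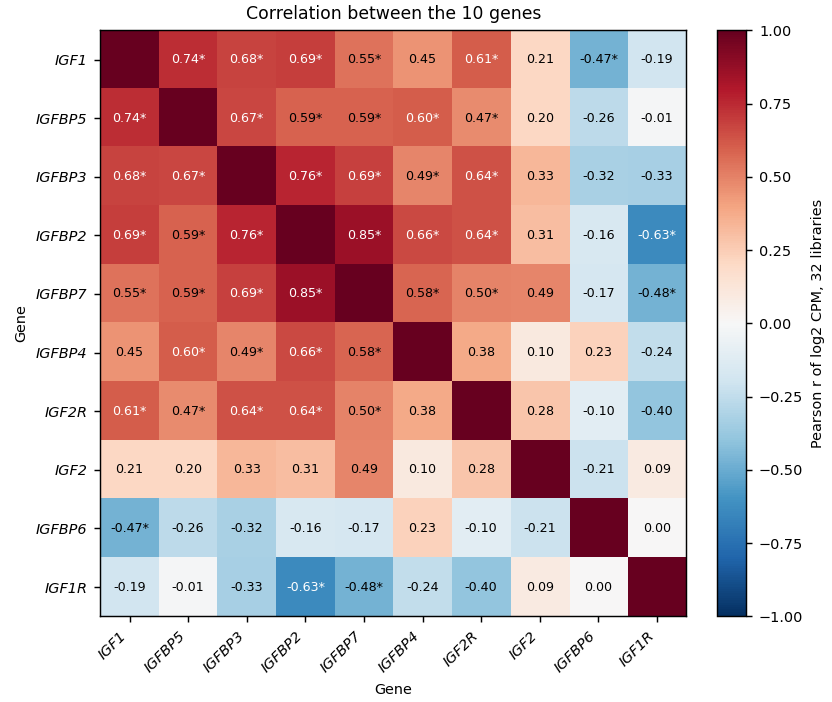
Pearson r of log2 CPM over the 32 libraries for each pair of the 10 genes (colour from -1 to 1, values printed), with a star where the adjusted permutation p was under 0.05 in the scans of both genes. The 10 pairs among IGF1, IGFBP2, IGFBP3, IGFBP5 and IGFBP7 are all positive and starred, IGF2 has no star, and 3 pairs with IGF1R or IGFBP6 are negative and starred.

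Over the whole table, each gene's closest genes by Spearman rho, up to 3, are given as a description with no test. IGF1 was closest to MYO16 (rho = 0.917), an unconventional myosin of neurons, to the transcription factor KLF7 (0.901) and to LPCAT1 (0.875). IGF2 was closest to CARD10 (0.818), to COL18A1 (0.711), the collagen of vessel basement membranes, and to COLGALT2 (0.699), which adds sugars to collagen.

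Genes closest to IGF1R included RERE (0.925), a nuclear corepressor, and NFAT5 (0.909), while IGF2R was closest to CRMP1 (0.919), which acts in axon guidance, ISLR2 (0.915) and PPP1R14C (0.882). The 2 receptor genes shared none of their 3 closest genes. IGFBP2 was closest to COL3A1 (0.929), a fibrillar collagen, SOX4 (0.920), a transcription factor of young neurons, and FABP7 (0.920), a fatty acid binding protein of radial glia. IGFBP7 was closest to IGFBP2 (0.911), to the scavenger collectin COLEC12 (0.886) and to filamin A, FLNA (0.884).

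IGFBP3 was closest to the laminin chain gene LAMC3 (0.874), TBC1D14 (0.857) and LTBP1 (0.854), whose product binds latent TGF-beta. IGFBP5 was closest to MEGF11 (0.793), fibronectin, FN1 (0.782), and SYNE2 (0.779). IGFBP4 was closest to OTUB2 (0.829), KCTD15 (0.809) and SYT17 (0.787), and IGFBP6 to PPP1R9B (0.843), a spine protein, PDE2A (0.811) and TMEM219 (0.807). These levels come from the same libraries and share their depth and make-up.

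Other genes of the IGF system were followed as a list of 10: INSR, INSRR, IGFALS, IGFBP1, IGFBPL1, PAPPA, PAPPA2, STC1, STC2 and HTRA1. With DCX, 4 of the 7 tested rose and 1 fell, with COL1A2 2 of 7 rose, and between the title sets 3 of 10 were higher in 2010, beside 26.1%, 21.7% and 12.5% of all genes called in either direction. The median log2 value was 0.10, 0.04 and 0.41. IGFBPL1, a binding-protein-like gene that is also among the young neuron markers, rose by 0.32 ± 0.042 per SD of DCX (adjusted p = 6.31e-07, edgeR) and stood 0.55 ± 0.098 higher in 2010 (0.000634). STC1, which encodes stanniocalcin 1, an inhibitor of the protease PAPPA, rose by 0.34 ± 0.071 with DCX (adjusted p = 0.000523, edgeR), by 0.30 ± 0.079 with COL1A2 (0.00537) and was 0.60 ± 0.16 higher in 2010 (0.0142). INSR, the insulin receptor gene, rose by 0.07 ± 0.020 with DCX (adjusted p = 0.0104, edgeR). IGFALS, the acid labile subunit that joins IGFBP3 and IGF in blood, fell by 0.21 ± 0.057 with DCX (adjusted p = 0.00554, edgeR).

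Of the signalling cascade below the receptor, from the insulin receptor substrates to the FOXO factors, 27 of 28 listed genes were tested. With DCX 5 rose and 5 fell, with COL1A2 2 rose and 6 fell, and in 2010 against 2009 2 were higher and 5 lower, with medians of 0.02, 0.01 and -0.01. The shares of all genes called in these comparisons were 26.1%, 21.7% and 12.5%. FOXO4, a transcription factor that AKT keeps out of the nucleus, fell by 0.44 ± 0.050 per SD of DCX (adjusted p = 3.99e-08, edgeR) and by 0.35 ± 0.061 with COL1A2 (0.000138). It was also lower in 2010 (-0.61 ± 0.13, adjusted p = 0.00254, edgeR).

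EIF4EBP1, the translation repressor that MTOR phosphorylates, rose by 0.31 ± 0.057 with DCX (adjusted p = 0.000104, edgeR), and stood 0.60 ± 0.12 higher in 2010 (0.00158). TSC1, part of the complex that restrains MTOR, fell by 0.08 ± 0.016 with DCX (adjusted p = 0.000652, edgeR), and GRB10, an adaptor that dampens receptor signalling, stood at -0.18 ± 0.040 in 2010 against 2009 (adjusted p = 0.00364). Of 4 listed genes for proteins that bind IGF2 RNA, 3 were tested, and IGF2BP2 and IGF2BP3 rose in all 3 comparisons. The third gene tested was called in none. Of all genes, 13.1% rose with DCX, 10.9% rose with COL1A2 and 7.11% were higher in 2010. IGF2BP2 rose by 0.38 ± 0.068 with DCX (adjusted p = 7.59e-05, edgeR) and IGF2BP3 by 0.28 ± 0.048 (3.69e-05).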

How the data were processed

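Per the labels, ribosomal RNA was removed with a Ribo-Zero Gold kit and stranded TruSeq libraries were made. The deposited table holds raw read counts per gene. STAR and HTSeq are named in the submitters' processing notes, without versions. Genome build, annotation and the strand setting of counting are not given in the sources at hand, so genes that overlap a neighbour are uncertain. Library sizes and tests left out the 5 rows outside genes, and the largest of these, reads in no feature, took 57.0% ± 3.61 (SD, n = 32) of reads. No column was left out. No 2 libraries were alike within counting noise (chi-square per degree of freedom at least 4.30 over 496 pairs).

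Library sizes were scaled by TMM in edgeR 4.0.16 (R 4.3.3). Genes were kept by filterByExpr (minimum count 10, total 15, proportion 0.7), 19959 of them for slopes. Log2 CPM had a prior count of 2. Slopes and title sets were tested by the quasi-likelihood test, two-sided, with Benjamini-Hochberg adjustment over all genes and a threshold of 0.05; the SE is the log2 value over the root of F. Correlations were two-sided permutation tests with 100000 permutations, adjusted in the same way over all genes. The scripts were tested on simulated data. Alternatives were DESeq2 1.42.0, its size factors, limma-trend (limma 3.58.1), other filters, covariates and left-out libraries. All 10 genes are named; the closest genes, up to 3 for each, needed a symbol and a mean of at least 1 CPM, and of each pathway list up to 4 called genes with the smallest p were eligible; some genes that these rules name are not reported here. The members and lists were chosen with earlier results of these data known. No transcript lengths or sequences were used here.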

Additional observations from a re-analysis of the deposited data

How the results depend on the processing

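No paired analysis was possible because the labels give 1 group and replicate numbers pair nothing. DESeq2 size factors, limma-trend and the mean of at least 1 CPM left the member counts of the 5 main comparisons as reported. Leaving out each library in turn, 953 of 960 member fits kept their call. The 7 others concern IGF2 on COL1A2 and IGF1R and IGFBP4 between the title sets, as given above. The cause of the changes below was not tested, apart from fits with fewer libraries. IGF2, with 3 to 70 counts per library, is the gene that depth limits most.

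With the title set as a factor, 1575 genes and 5 members passed on DCX, 157 genes and 3 members on COL1A2, and 833 genes and 2 members on DCX given COL1A2. For COL1A2 given DCX, 1 member passed with the title set as a factor or with the share in no feature as a covariate, and DESeq2 called 91 genes. On DCX given COL1A2, IGFBP6 passed by DESeq2 (adjusted p = 0.0298), IGF2R passed with the share in no feature as a covariate (adjusted p = 0.0117, edgeR), and IGFBP3 did not pass without a filter on low counts (adjusted p = 0.0693, edgeR). Within the 2009 set 46 genes and 1 member passed on DCX and 28 genes and 3 members on COL1A2. With library 8 also left out of that set, 0 genes and 0 members passed on DCX (1041 genes at an unadjusted p under 0.05, edgeR) and 3 genes and 0 members on COL1A2. Within the 2010 set 1006 genes and 4 members passed on DCX, and 7 genes and 0 members on COL1A2. With fibroblast markers in place of COL1A2, 567 genes and 4 members passed.

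Between the title sets, 0 genes and 0 members passed with DCX and COL1A2 as covariates, and 1162 of 22203 genes (5.23%) and 4 members passed without VMT numbers of 20000 or higher. By correlation, 0 members passed within the 2009 set for DCX and 0 for COL1A2, where 0% of all genes did for either. Within the 2010 set 2 members passed for DCX and 0 for COL1A2, where 4.09% and 0.02% of all genes did. On linear CPM 3 members passed with COL1A2, where 2.42% of all genes did.

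Of 70 member results, 13 changed sign under some alternative. On DCX these were IGF1R, at 0.038 with the title set as a factor, 0.068 within the 2010 set (r = 0.325) and 0.027 in the 2009 set without library 8 (r = 0.0772), and IGFBP4, at -0.0030 in the 2009 set and -0.14 there without library 8 (r = -0.0651). On DCX given COL1A2, IGF1R stood at -0.042 with the share in no feature as a covariate. On COL1A2, IGF1 stood at -0.0040 in the 2009 set without library 8 (r = -0.0364), and IGFBP6 at 0.035 in the 2009 set (r = 0.148) and 0.27 there without library 8 (r = 0.402). Between the title sets with both reference genes as covariates, IGF1 stood at -0.10, IGF2 at -0.10, IGF2R at -0.15 and IGFBP3 at -0.090, none of which passed.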

Other observations

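In the RefSeq gene table of the vervet assembly mChlSab1.0.hap1, IGFBP3 and IGFBP1 neighbour each other, and IGFBP2 and IGFBP5 do so among protein-coding genes. IGFBP1, a binding protein gene known best from liver, was read at 1 to 42 counts per library, 0.0567 to 2.71 CPM with a median of 0.288, and was too low for the slope fits. Its highest values fell in library 29 with 2.71 CPM (exact Poisson 95% interval 1.96 to 3.67) and library 15 with 2.18 CPM. These are 2 of the 3 libraries that stood apart in IGFBP3, at 79.2 and 63.2 CPM. In the third of them, library 32, IGFBP1 stood at 1.13 CPM beside 72.2 CPM of IGFBP3, and library 26 held 1.08 CPM of IGFBP1 beside 23.7 CPM of IGFBP3. The neighbours IGFBP2 and IGFBP5 were correlated at r = 0.593 and rho = 0.614 over the 32 libraries (permutation p = 0.00045 and 0.00029, larger adjusted p of the scans 0.0106 and 0.015), with r of 0.396 in the 2009 set and 0.493 in the 2010 set, and 0.622 without the 2 libraries farthest in IGFBP2. IGFBP2 had a higher r with IGFBP7 (0.855), IGFBP3 (0.763), IGF1 (0.693), IGFBP4 (0.662) and IGF2R (0.636), all on other chromosomes.

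Library 8, the 2009 library with the most COL1A2, also held the highest IGF1 (40.3 CPM), IGF2 (3.64), IGF2R (226), IGFBP2 (22.9), IGFBP3 (26) and IGFBP7 (57.6) of its set, while its IGFBP6 (11 CPM) and IGF1R (110 CPM) lay inside the range of the other 13 libraries. Its TTR, at 34.7 CPM, was the highest of the set too. Library 22, the 2010 library with the most COL1A2 and with 387 CPM of TTR, held the highest IGF2 of its set (2.25 CPM) and 69.4 CPM of IGFBP7, but 31.4 CPM of IGF1, below the set's median of 37.4.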
